A study of Homo sapiens with 6 samples.

Results

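The genes described here encode CXCL8, also known as interleukin-8, and 7 further chemokines that recruit neutrophils and other leukocytes: CXCL1, CXCL2, CXCL3, CXCL5, CXCL6, CCL20 and CCL2. They were listed by name with earlier results of these data known. Each of the 8 matched 1 probe set that the platform annotation assigns to a single gene symbol, out of 18417 such genes on the array. HT29, a human colorectal adenocarcinoma cell line, was grown for 7 days and its RNA measured on 6 expression arrays, in log2 units. Cells with a construct that expresses laminin α1 gave 3 arrays, and cells with a control construct gave the other 3; laminin α1 is 1 of the chains of laminin, a protein of basement membranes. Per the series' design text the 3 arrays of a group are separate culture passages. How many clones lie behind each group and which promoter and sequence the construct has is not stated, so the spread reported is that between passages.

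Chemokines are small secreted proteins that bind receptors on leukocytes and guide their migration. CXCL1, CXCL2, CXCL3, CXCL5, CXCL6 and CXCL8 carry a glutamate-leucine-arginine motif ahead of their CXC cysteines. They act on neutrophils through the receptor CXCR2, and some of them also through CXCR1. CCL20 binds CCR6 on dendritic cells and lymphocytes, and CCL2 binds CCR2 on monocytes. In the intestine, epithelial cells release these proteins in answer to bacterial products, interleukin-1 and tumour necrosis factor, through the transcription factors NF-kB and AP-1, and the mRNAs carry AU-rich elements that make them short-lived.

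The labels were checked first. LAMA1, the gene of the laminin α1 chain, had values of 5.79, 5.72 and 5.71 in the laminin α1 arrays, against 5.71, 5.63 and 5.60 in the control arrays. The difference of 0.09 (95% interval -0.05 to 0.24) did not pass the threshold (limma adjusted p = 0.535), and whether its probes match the construct is not given, so LAMA1 does not verify the labels. Of 10 colon epithelial markers, all were above the level filter of 5.50 used below, and 2 of them, KRT20 and LGALS4, fell by 0.35 and 0.31, beside 2.59% of all tested genes that fell. Of these markers 0 were called lower without laminin α1 replicate 2 or without control replicate 2, and 1 without control replicate 1. Over all genes, 429 were called without laminin α1 replicate 2 and 405 without control replicate 2, against 730 with all arrays. None of the 10 tested fibroblast, leukocyte and endothelial markers passed the threshold, beside 5.29% of all tested genes. The other 9 of these markers with a probe set lay below the level filter. PTPRC, the leukocyte common antigen, had the lowest mean of the leukocyte markers, 3.55 in laminin α1 arrays and 3.65 in control arrays. CD14 had the highest, with 7.32, 7.05 and 7.02 in the laminin α1 arrays, against 6.85, 6.98 and 6.95 in the control arrays. Its groups did not overlap, and the difference of 0.20 did not pass (limma adjusted p = 0.284). Of the 4 tested leukocyte markers 2 had a positive difference. The part of the 2 lower epithelial markers in the results was not tested. Array medians lay between 6.45 and 6.49.

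CXCL8 was higher in the laminin α1 arrays, and it was the only one of the 8 chemokine genes that passed the test. Its values were 7.45, 7.35 and 7.23 in the laminin α1 arrays, against 6.19, 6.43 and 6.48 in the control arrays. All 3 laminin α1 arrays lay above all 3 control arrays, with a gap of 0.74 between the nearest arrays of the groups. The means were 7.34 ± 0.11 in laminin α1 and 6.37 ± 0.16 in control arrays (SD, n = 3 each), a log2 difference of 0.98 (SE 0.09). This is 1.97-fold, with a 95% interval of 1.71-fold to 2.27-fold, and limma's adjusted p over 13812 genes was 0.000155. The difference ranked 31st from the top among the genes tested. An exact two-sided permutation test gave p = 0.1, the smallest that 3 against 3 arrays allow. Array values of whole cultures cannot separate more CXCL8 RNA per cell from more cells that make it.

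Among the 8 genes, 5 had a mean over all arrays above the level filter, set at the 25th percentile of genes, and were tested. One rose, CXCL8, and 0 fell, beside 2.69% of all tested genes that rose and 2.59% that fell (5.29% in either direction). CXCL3, CCL20 and CCL2 lay below the filter, and their differences come from the same fit run without it, in which 0 of these 3 passed, beside 4.21% of all 18417 genes. The difference was positive for 4 of the 5 tested genes and for 7 of all 8, beside 6304 of all 13812 tested genes. The median was 0.14 over the 5 tested genes and 0.14 over the 8, whereas the median over all tested genes was -0.01.

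**Figure D1:**
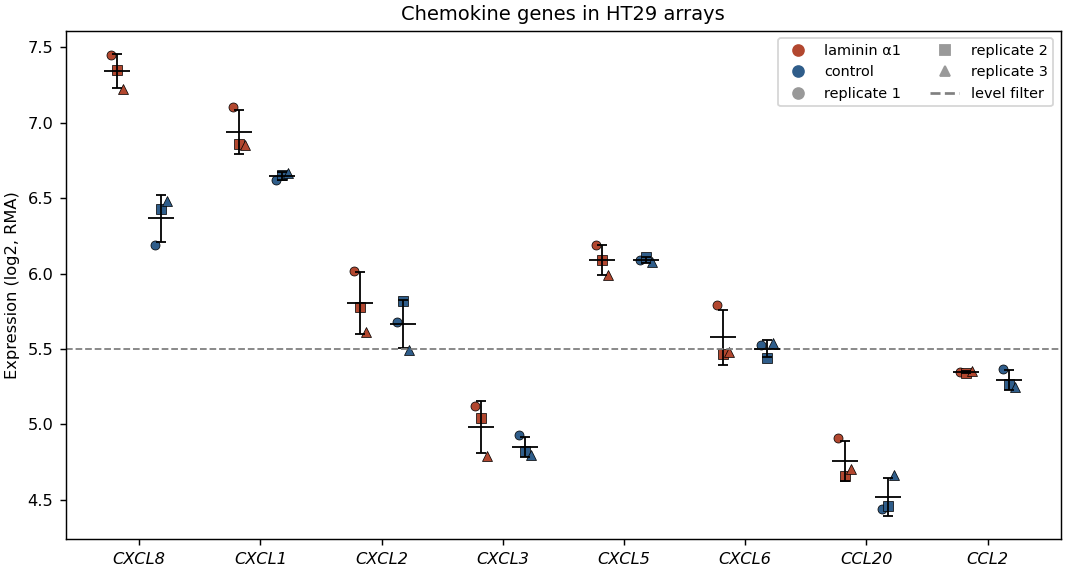
Log2 expression of the 8 chemokine genes in each array, laminin α1 left of control for each gene, with marker shapes for the replicate number, bars for the mean and SD of 3 arrays, and the level filter as a dashed line. CXCL8 shows the widest gap between the groups, from 7.23 in the lowest laminin α1 array to 6.48 in the highest control array, and CXCL3, CCL20 and CCL2 lie below the filter.

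CXCL1, CXCL2 and CXCL3 are the closest relatives among these ligands and attract neutrophils through CXCR2. CXCL1 had 7.11, 6.86 and 6.85 in the laminin α1 arrays, against 6.62, 6.66 and 6.67 in the control arrays. Its groups did not overlap, but the difference of 0.29 (SE 0.08, 95% interval 0.11 to 0.47) missed the threshold at a limma adjusted p of 0.0710. Groups that did not overlap, with laminin α1 higher, were found for CXCL8 and CXCL1, or 2 of the 8 genes, beside 9.21% of all 18417 genes. With laminin α1 lower they were found for 0 of the 8, beside 10.3% of all genes. The call of CXCL1 depended on the processing: without laminin α1 replicate 3 it passed, with a difference of 0.34 (limma adjusted p = 0.0384). In that fit 2 of the tested chemokine genes and 8.77% of all tested genes were called. With array weights CXCL1 passed as well, at 0.22 (limma adjusted p = 0.00219), when 2 of the tested chemokine genes and 34.0% of all tested genes were called. The estimate of these weights did not converge and ran from 0.317 to 10.7, highest for control replicate 2. This limit holds for every result with array weights given below. CXCL1 also passed with replicate number as a block, at 0.29 (limma adjusted p = 0.0369), when 11.6% of all tested genes were called. With this block, too, 2 of the tested chemokine genes were called.

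CXCL2 had 6.02, 5.78 and 5.61 in the laminin α1 arrays, against 5.68, 5.82 and 5.50 in the control arrays. The groups overlapped, and the difference of 0.14 (95% interval -0.11 to 0.39) did not pass (limma adjusted p = 0.623). CXCL3 had 5.12, 5.04 and 4.79 in the laminin α1 arrays, against 4.93, 4.82 and 4.80 in the control arrays. Its groups overlapped as well, with a difference of 0.13 (95% interval -0.07 to 0.33) in the fit without the filter. The 3 genes are similar in sequence, so RNA of one can reach probes of another, and how much each contributed to the values of the others was not tested.

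CXCL5 and CXCL6, a second pair of close relatives, also attract neutrophils. CXCL5 had 6.19, 6.09 and 5.99 in the laminin α1 arrays, against 6.09, 6.11 and 6.08 in the control arrays. The mean difference was -0.0042 (95% interval -0.16 to 0.15), and the control arrays lay inside the range of the laminin α1 arrays. CXCL6 had 5.79, 5.46 and 5.48 in the laminin α1 arrays, against 5.53, 5.44 and 5.54 in the control arrays. Its difference of 0.08 (95% interval -0.13 to 0.28) did not pass (limma adjusted p = 0.758), and only laminin α1 replicate 1 lay above all control arrays. The intervals of CXCL5 and CXCL6 end below the lower bound of CXCL8, which is 0.77.

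The 2 CC chemokines were both below the level filter. CCL20 had 4.91, 4.66 and 4.70 in the laminin α1 arrays, against 4.44, 4.46 and 4.67 in the control arrays. The groups overlapped by 1 pair of arrays, and the difference of 0.24 (95% interval 0.04 to 0.43) did not pass in the fit without the filter (limma adjusted p = 0.227). CCL2 had 5.35, 5.34 and 5.35 in the laminin α1 arrays, against 5.37, 5.27 and 5.25 in the control arrays. Its difference of 0.05 (95% interval -0.09 to 0.19) was the smallest in size after that of CXCL5.

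**Figure D2:**
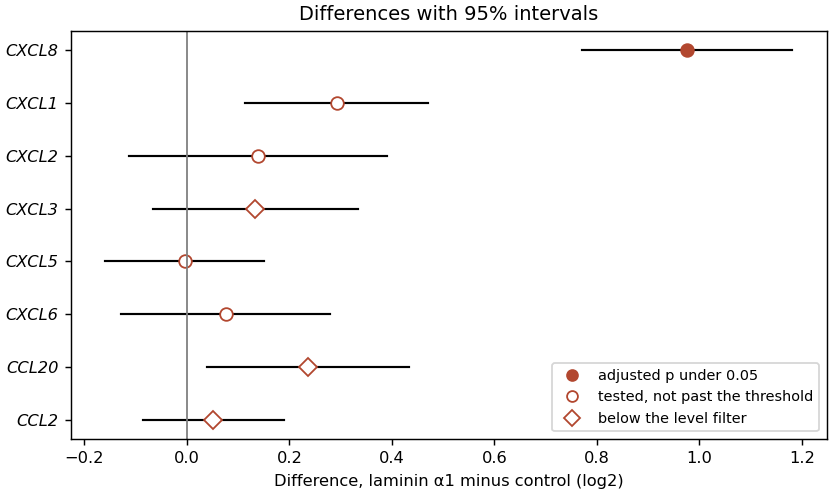
Log2 differences, laminin α1 minus control, with 95% intervals from limma for the 8 chemokine genes; filled circles passed the threshold, open circles were tested without passing and open diamonds lay below the level filter. Only CXCL8, at 0.98, passed, and its interval of 0.77 to 1.18 lies wholly above the other 7 intervals.

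The log2 ratio of CXCL8 to each other member was also taken within each array. Since CXCL8 was the member that passed, these ratios largely restate its own difference and are no separate evidence. The change of CXCL8 exceeded that of CXCL1 by 0.68, that of CCL20 by 0.74 and that of CXCL2 by 0.84. It exceeded those of CXCL3, CXCL6, CCL2 and CXCL5 by 0.84, 0.90, 0.92 and 0.98. In all 7 pairs the 3 laminin α1 ratios lay above the 3 control ratios. Each exact two-sided permutation p was 0.1, also after Benjamini-Hochberg adjustment over the 7 pairs, and 3 against 3 arrays cannot give a smaller one. CXCL3, CCL20 and CCL2 lay below the level filter, where a change can be understated.

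Within the laminin α1 group, replicate 1 had the highest value of the 3 arrays for 7 of the 8 genes, all but CCL2. The same array was highest for 43.2% of all tested genes. In the control group replicate 1 was highest for 2 of the 8 genes, CXCL3 and CCL2, and for 48.8% of all tested genes. For CXCL8 the control replicate 1 was the lowest array of all, and the gene passed the threshold whichever array was left out, with differences between 0.89 and 1.03.

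The region before the start of the gene is shown for CXCL8 because its control by NF-kB and AP-1 is the best known feature that these genes share. The 250 bases before the RefSeq start in GRCh38.p14, chr4:73740319-73740568 on the plus strand, read 5′ to 3′ as follows, with capitals for the AP-1 letters TGACTCA and for the κB core GGAATTTCC.
CXCL8: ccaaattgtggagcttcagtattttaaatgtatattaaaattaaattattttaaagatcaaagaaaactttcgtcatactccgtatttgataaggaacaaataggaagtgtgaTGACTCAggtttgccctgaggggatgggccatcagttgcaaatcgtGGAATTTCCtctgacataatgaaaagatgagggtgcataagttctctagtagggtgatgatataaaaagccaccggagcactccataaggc

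The same κB core was found before the start of all 6 CXC genes, in the orientation of the gene. Windows of 40 bases around it are set side by side because they show how close relatives resemble each other and how CXCL8 differs. Capitals mark the core, and a further G directly before it where present.
CXCL8: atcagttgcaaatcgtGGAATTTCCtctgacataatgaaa
CXCL1: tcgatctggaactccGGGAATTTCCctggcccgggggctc
CXCL2: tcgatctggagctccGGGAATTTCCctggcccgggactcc
CXCL3: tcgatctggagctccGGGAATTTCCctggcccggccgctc
CXCL5: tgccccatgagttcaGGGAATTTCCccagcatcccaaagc
CXCL6: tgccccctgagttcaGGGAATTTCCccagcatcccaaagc

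These windows lie at chr4:73740462-73740501 on the plus strand for CXCL8, chr4:73869299-73869338 on the plus strand for CXCL1 and chr4:74099249-74099288 on the minus strand for CXCL2. They lie at chr4:74038744-74038783 on the minus strand for CXCL3, chr4:73998744-73998783 on the minus strand for CXCL5 and chr4:73836573-73836612 on the plus strand for CXCL6. RefSeq entries were at hand for 7 of the 8 genes, the exception being CCL2. On either strand, GGAATTTCC was present in 6 of these 7 regions and in 0.413% of all 35116 RefSeq regions of the same length. The longer form with a further G directly before the core, which contains it, was present in 5 of 7, all but CXCL8 and CCL20, and in 0.142% of all regions. TGACTCA was present in 1 of 7, that of CXCL8, and in 4.2% of all regions, and none of the searched letters was found for CCL20.

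The first base of the core stood 91 bases before the start in CXCL8, 77 or 78 in CXCL1, CXCL2 and CXCL3, and 89 or 90 in CXCL5 and CXCL6. The TGACTCA of CXCL8 began 137 bases before its start. Aligned over the whole 250 bases, CXCL5 and CXCL6 were identical in 85.3% of columns, CXCL1 and CXCL3 in 81.4% and CXCL2 and CXCL3 in 73.4%. CXCL8 was identical to the other CXC regions in 43.9% to 47.9% of columns. The matches of close relatives are therefore not separate observations. A match shows only that the letters are present, and sites with other letters were not searched. The share over all regions describes how common the letters are and is no test. The gene that rose and the CXC genes that did not pass all carried the core.

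**Figure D3:**
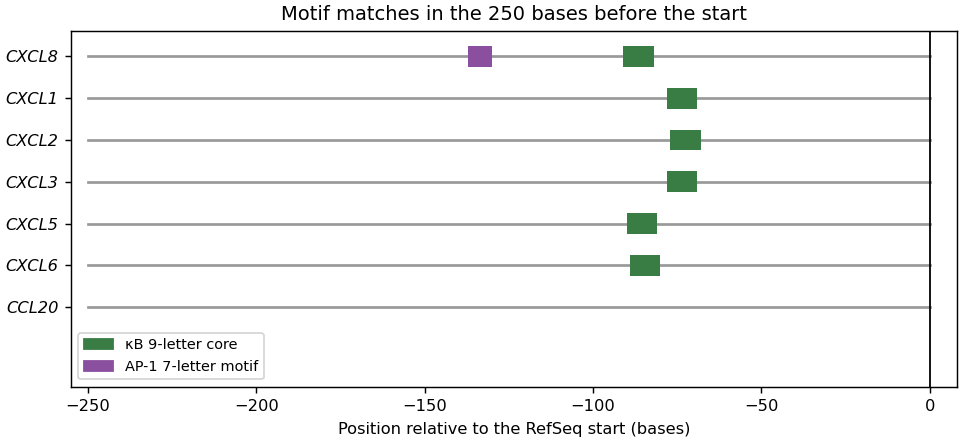
Positions of the κB core and of the AP-1 letters in the 250 bases before the RefSeq start of 7 chemokine genes, with the start at 0. The core lies between 91 and 69 bases before the start in all 6 CXC genes, the AP-1 letters are seen in CXCL8 alone, and CCL20 has neither.

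The 6 CXC genes lie together on chromosome 4, while CCL20 is on chromosome 2 and CCL2 on chromosome 17. The platelet chemokine genes PF4V1, PF4 and PPBP and the pseudogene PPBPP2 lie between them, so that 10 measured genes make up the cluster from CXCL8 to CXCL2. CXCL8 stands at one end of the cluster. Of the cluster's 6 tested genes only CXCL8 rose and 0 fell, beside 2.69% of all tested genes that rose and 2.59% that fell. CXCL6, its nearest measured neighbour inside the cluster, differed by 0.08, and RASSF6, a gene of the RAS association domain family and the nearest measured gene outside, by -0.0024.

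The 5 measured genes on the outer side of CXCL8 were ANKRD17, ALB, AFP, AFM and RASSF6. Of these, 2 were tested and 0 passed, beside 5.29% of all tested genes. Of the 5 beyond CXCL2, MTHFD2L, EPGN, EREG, BTC and PARM1, 4 were tested and 1 passed, beside 5.29% of all tested genes. It was EREG, which encodes epiregulin, a ligand of the EGF receptor. EREG had 9.30, 9.48 and 9.56 in the laminin α1 arrays, against 10.2, 10.3 and 10.2 in the control arrays, and its groups did not overlap. It fell by 0.79 (SE 0.08) on the log2 scale, or 1.73-fold, with a limma adjusted p of 0.000235. EREG thus fell and CXCL8 rose, while no other tested gene of the cluster or of its 10 neighbours passed.

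**Figure D4:**
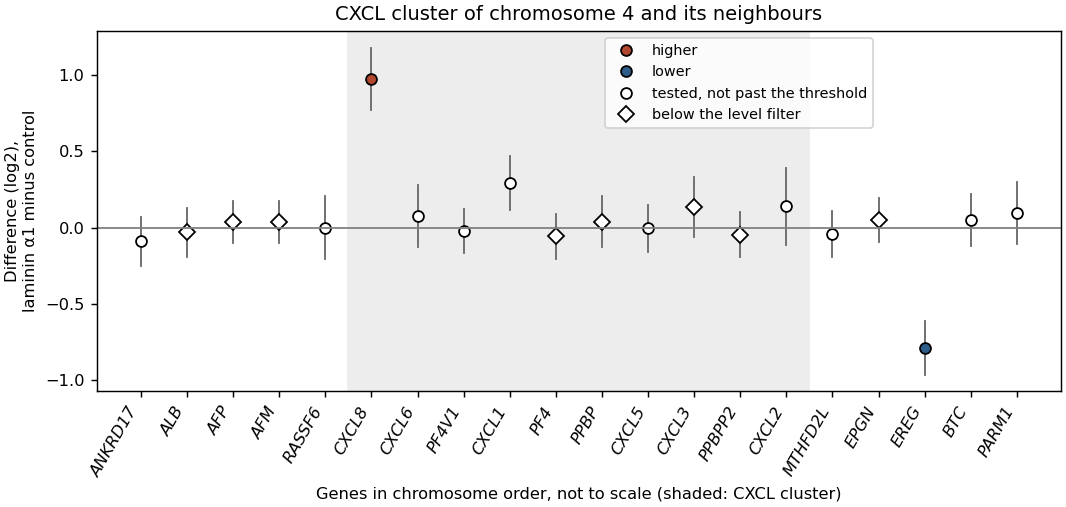
Log2 differences, laminin α1 minus control, with 95% intervals for the measured genes of the CXCL cluster on chromosome 4 (shaded) and 5 measured neighbours on each side, in chromosome order without scale; diamonds lie below the level filter. CXCL8 at 0.98 and EREG at -0.79 are the only genes past the threshold.

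The receptors of these ligands are mainly known from leukocytes. All 6 receptor genes examined, CXCR1, CXCR2, CCR6, CCR2 and the scavenging receptors ACKR1 and ACKR2, lay below the level filter. Their differences without the filter ran from -0.09 to 0.09, and the smallest limma adjusted p was 0.733. CXCR1 averaged 4.29 in laminin α1 arrays and 4.24 in control arrays, and CXCR2 averaged 4.15 in laminin α1 arrays and 4.19 in control arrays.

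Other chemokines were measured by 23 genes, of which 14 were tested. Among these 2 rose and 0 fell, beside 2.69% of all tested genes that rose and 2.59% that fell, and 1 was called lower without laminin α1 replicate 1. With array weights 4 were called higher and 3 lower, when 34.0% of all tested genes were called. The 2 were CXCL10 and CCL5, which attract T cells. CXCL10 had 8.78, 8.93 and 9.07 in the laminin α1 arrays, against 7.31, 7.45 and 7.89 in the control arrays, without overlap, and rose 2.60-fold (limma adjusted p = 0.000223). CCL5 had 8.10, 8.23 and 8.04 in the laminin α1 arrays, against 7.64, 7.66 and 7.57 in the control arrays, and rose 1.42-fold (limma adjusted p = 0.00217). The median difference of the 14 tested genes was -0.03. Among the chemokine ligands tested, the 3 that rose were thus 1 attractant of neutrophils and 2 of T cells.

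Upstream of CXCL8, no gene passed the threshold among the 18 tested inducing cytokines, cytokine receptors and bacterial sensors, beside 5.29% of all tested genes. Both interleukin-1 genes, IL1A and IL1B, and TNF lay below the level filter, with IL1B at 4.71 in laminin α1 arrays and 4.62 in control arrays and TNF at 5.33 in laminin α1 arrays and 5.29 in control arrays. The 2 tested genes with the smallest p were IL17RE, a receptor subunit for interleukin-17C, with a difference of -0.13 (adjusted p = 0.376), and LTB, lymphotoxin beta, with -0.12 (adjusted p = 0.405). TLR4, the sensor of lipopolysaccharide, had a difference of 0.25 (SE 0.15, adjusted p = 0.461).

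The NF-kB signalling chain runs from the adaptor MYD88 through the IKK kinases to the NF-kB subunits. Of its 18 tested genes 0 passed the threshold, beside 5.29% of all tested genes. Their differences ran from -0.16 to 0.14, with a median of 0.02. MAP3K14, the kinase of the non-canonical branch, differed by 0.14 (adjusted p = 0.435) and CHUK, an IKK subunit, by -0.16 (adjusted p = 0.550). RELA, the subunit most often tied to CXCL8 transcription, averaged 9.96 in laminin α1 arrays and 9.91 in control arrays. These are mRNA levels, and the activity of NF-kB, which is set by protein degradation and nuclear entry, was not measured.

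Of the 10 tested inhibitors and modulators of NF-kB 0 passed the threshold, beside 5.29% of all tested genes. Their differences were positive for 8 of 10, beside 6304 of all 13812 tested genes, with a median of 0.06. With array weights 3 were called higher and 1 lower, when 34.0% of all tested genes were called. BCL3, an atypical IkB protein, differed by -0.23 (adjusted p = 0.126) and NFKBIE, an IkB inhibitor, by 0.18 (adjusted p = 0.213). NFKBIA, the main IkB inhibitor and itself an NF-kB target, had 9.75, 9.55 and 9.53 in the laminin α1 arrays, against 9.47, 9.53 and 9.31 in the control arrays. Its groups did not overlap, and the difference did not pass (adjusted p = 0.351).

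Of 11 tested AP-1, C/EBP and early response factors, 0 passed, beside 5.29% of all tested genes. EGR1, an early growth response factor, came closest, with 9.15, 9.16 and 8.98 in the laminin α1 arrays, against 9.42, 9.47 and 9.30 in the control arrays. Its groups did not overlap, and the difference of -0.30 (SE 0.08) had an adjusted p of 0.0526. CEBPB, a C/EBP factor, differed by 0.22 (adjusted p = 0.199) without overlap. FOS and JUN, partners in AP-1, differed by -0.35 (adjusted p = 0.169) and 0.25 (adjusted p = 0.325). With array weights, when 34.0% of all tested genes were called, 2 factors of this list were called higher and 2 lower. The lower ones were EGR1 and FOS (limma adjusted p = 0.000314 and 0.000833). With replicate number as a block, when 11.6% of all tested genes were called, 2 were called higher and 2 lower. The lower ones were again EGR1 and FOS (limma adjusted p = 0.00935 and 0.0051). Of 11 tested genes of AU-rich mRNA decay, related mRNA control and the p38 pathway, 0 passed, beside 5.29% of all tested genes. The 2 with the smallest p were ZC3H12A, an endonuclease that cuts stem-loops of cytokine mRNAs, at 0.14 (adjusted p = 0.350), and ZFP36L2, a decay factor, at -0.13 (adjusted p = 0.399).

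Of 17 tested further genes known as NF-kB targets, 5 rose (limma adjusted p under 0.05), 0 fell and 12 did not pass, against 2.69% of all tested genes that rose, and the median difference was 0.12, against -0.01 over all tested genes. PTGS2, the inducible cyclooxygenase, had 7.81, 7.66 and 7.79 in the laminin α1 arrays, against 6.88, 6.47 and 6.81 in the control arrays. It rose 2.05-fold (limma adjusted p = 0.000241), and all laminin α1 arrays lay above all control arrays.

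IER3, an early response gene that limits cell death, had 10.9, 10.7 and 10.6 in the laminin α1 arrays, against 9.93, 9.84 and 9.95 in the control arrays, and rose 1.79-fold. TNFAIP2, a gene induced by tumour necrosis factor, had 8.84, 8.63 and 8.55 in the laminin α1 arrays, against 8.15, 7.94 and 7.96 in the control arrays, and rose 1.57-fold. LCN2, an iron-binding lipocalin, rose 1.24-fold and CSF1, a growth factor of macrophages, 1.19-fold. The calls of both were lost without single arrays: LCN2 had an adjusted p of 0.0960 without laminin α1 replicate 2, 0.0782 without control replicate 2 and 0.0677 without control replicate 3. CSF1 passed only without laminin α1 replicate 3 among the 6 arrays left out in turn. Its call was also lost with each array centred on its median (limma adjusted p = 0.0531) and with all probe sets tested separately (limma adjusted p = 0.1). Without laminin α1 replicate 2, control replicate 2 or control replicate 3, 3 genes of the list were called. The calls over all genes fell from 730 to 429 without laminin α1 replicate 2 and to 405 without control replicate 2. ICAM1 and SOD2, common NF-kB targets, differed by 0.12 and -0.00024 and did not pass. The largest differences that did not pass were 0.34 for CFB and 0.30 for PIGR (limma adjusted p = 0.155 and 0.160). Of the 17 tested genes 13 had a positive difference, beside 6304 of all 13812 tested genes. The members that rose therefore formed a part of the list, and the list was compiled with results of these data known.

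**Figure D5:**
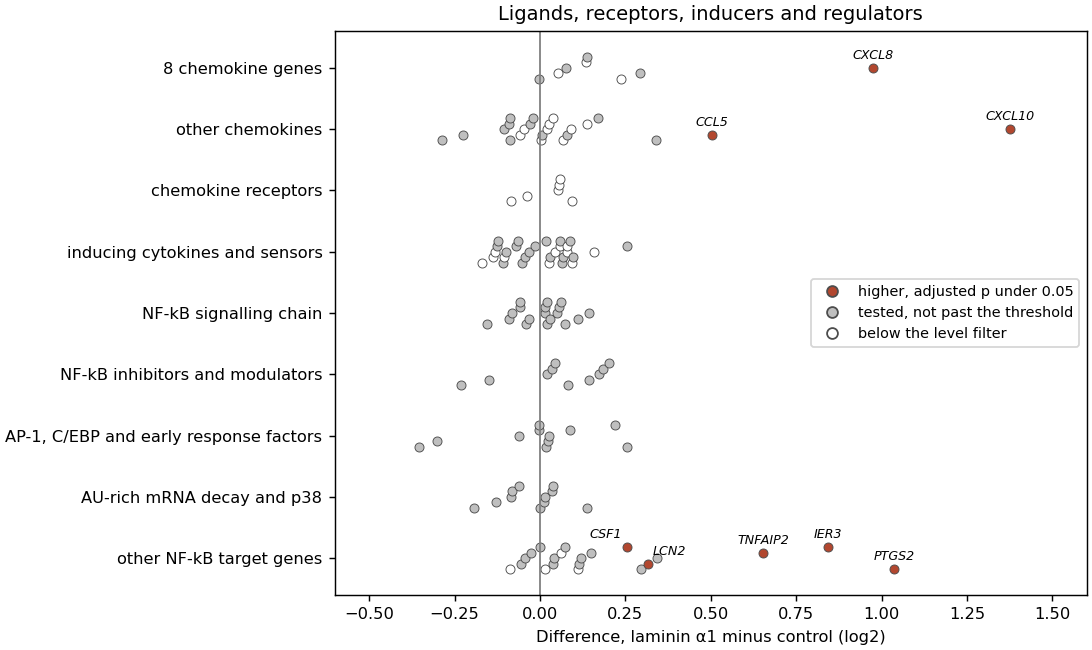
Log2 differences, laminin α1 minus control, for the 8 chemokine genes and 8 lists of ligands, receptors, inducers and regulators, 1 point per gene; filled points passed the threshold, grey points were tested without passing and open points lay below the level filter. The genes past the threshold are CXCL8, CCL5, CXCL10 and 5 further NF-kB targets, all higher. No receptor gene was tested. The inducer, signalling, inhibitor, AP-1 and mRNA decay lists have none past the threshold, beside 5.29% of all tested genes.

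Likeness to CXCL8 over the 6 arrays was measured as the root mean square distance between log2 values, each centred on the gene's own mean. Among 13811 other tested genes, whose median distance was 0.51, the nearest were GTF3A at 0.07, SNORA27 at 0.09, and DMKN, B3GLCT and RGCC at 0.10 each. GTF3A, a transcription factor for the ribosomal 5S RNA gene, had 11.5, 11.4 and 11.3 in the laminin α1 arrays, against 10.5, 10.5 and 10.6 in the control arrays. Of the 5 genes, 4 lie on chromosome 13 and DMKN lies on chromosome 19, so none is a neighbour of CXCL8. With 2 groups that differ for all 5 genes, the measure mostly reflects a similar difference between the groups.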

How the data were processed

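HT29 arrays were grouped by the construct named in the labels, 3 laminin α1 and 3 control. The log2 values per probe set are as the authors deposited them; the submitters' processing notes name Affymetrix Expression Console 1.1 and the RMA method, which makes the distributions of the arrays alike, so a shift common to every gene would be hidden. The labels name the dye Cy3, and the table has 1 value per array. Of 33297 probe sets, 19460 have 1 gene symbol, and the brightest per gene was kept. The number of arrays limits the precision (median SE 0.08).

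limma 3.58.1 (lmFit, eBayes; R 4.3.3) compared laminin α1 with control with no covariate, over the 13812 genes whose mean exceeded the 25th percentile. Benjamini-Hochberg adjustment ran over all genes tested, at a threshold of 0.05, and limma gave every adjusted p of a gene. The fit was tested on simulated data. Lists were described by counts and medians, without a set test.

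The members and lists were chosen with earlier results of these data known. Named were the 8 members and LAMA1, up to 6 genes past the threshold per list or else the 2 with the smallest p, the 5 genes most like CXCL8, and 5 chromosomal neighbours on each side. Others were chosen after their values were seen, for their role. Gene order came from RefSeq (GRCh38.p14), and regions before gene starts were searched on both strands. Alignments were global (Biopython 1.88; match 1, mismatch -1, gap -2 to open and -0.5 to extend). Alternatives covered filters, probe set choice, normalization, weighting, a replicate block and arrays left out in turn.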

Additional observations from a re-analysis of the deposited data

How the results depend on the processing

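CXCL8 was tested under 14 alternatives and passed in all of them, with differences from 0.89 to 1.03 and limma adjusted p from 1.46e-07 to 0.00296. The filter at the 50th percentile removed it from the test, which left 0 chemokine genes called. Of 13812 genes 730 were called, and this count was 393 at an adjusted p under 0.01, 442 with all probe sets tested separately, and from 405 to 1211 when single arrays were left out (405 without control replicate 2, 429 without laminin α1 replicate 2 and 1211 without laminin α1 replicate 3).

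The replicate numbers were not taken to pair the arrays in the main fit. In their deviations from the group means over genes, same-numbered arrays correlated at 0.39, 0.02 and 0.53. Arrays of different numbers correlated at -0.49 to 0.16, so a pairing by number is not excluded. With the replicate block 1596 genes (11.6%) and 2 chemokine genes were called, CXCL1 with a difference of 0.29 (adjusted p = 0.0369) besides CXCL8. The block called 2 AP-1, C/EBP and early factors higher and 2 lower, the lower ones EGR1 and FOS (adjusted p = 0.00935 and 0.0051), and 1 NF-kB inhibitor and 1 inducing cytokine or sensor higher and 1 other chemokine lower. Replicates 1 and 3 of each group correlated best with their own number, and replicate 2 of each group did not. With array weights, 4691 genes (34.0%) were called. The estimate of these weights did not converge and ran from 0.317 to 10.7, highest for control replicate 2. It called CXCL1 (0.22, adjusted p = 0.00219) besides CXCL8 among tested members, 2 in all, and without the level filter also CXCL3 (0.19, adjusted p = 0.0196) and CCL20 (0.20, adjusted p = 0.0225).

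When single arrays were left out, 1 or 2 chemokine genes were called. CXCL1 ranged from 0.21 to 0.34, CXCL2 from 0.03 to 0.23 and CXCL3 from 0.06 to 0.23. CCL20 ranged from 0.16 to 0.31, CCL2 from 0.03 to 0.09 and CXCL5 from -0.0540 to 0.0453. CXCL6 ranged from 0.04 to 0.13 where it was tested, but without laminin α1 replicate 1 it fell below the level filter. In laminin α1 replicates 2 and 3 CXCL6 had 5.46 and 5.48, below its control mean of 5.50, so its sign turned without replicate 1. The sign of CXCL2 turned with array weights (-0.0161). That of CXCL5 turned with centring (0.00184), with repeated quantile normalization (0.00274) and without laminin α1 replicate 3 or control replicate 2. Among neighbours, signs turned for EPGN (-0.0360) and BTC (-0.0725) with array weights and for RASSF6 with centring (0.00358) and quantile normalization (0.000988). Leaving out single arrays turned the sign of ALB (-0.0939 to 0.0296), RASSF6 (-0.102 to 0.0727) and BTC (-0.00582 to 0.111). MAP3K14 ranged from 0.07 to 0.18 and CHUK from -0.25 to -0.05. The cause was not tested. Epithelial markers called lower were 1 with all probe sets tested separately and at an adjusted p under 0.01. The 5 further NF-kB targets were 3 without laminin α1 replicate 2, control replicate 2 or control replicate 3, and 10 with array weights.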
